A study of Mus musculus with 6 samples.

Results

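The genes described here mark the blood vessels of the embryonic midbrain. They are 10 of the 26852 genes in the table and were listed by name: the endothelial genes Pecam1, Esam, Kdr, Flt1, Tek, Tie1 and Cldn5, and the pericyte genes Pdgfrb, Rgs5 and Abcc9. The rule that lists them uses no measured value, although the list was drawn up with earlier results of these data known, and all 10 were found in the table by their Ensembl identifiers. At E14.5, midbrains were taken from Lmx1b conditional knockout embryos (Lmx1b cKO, Lmx1b fl/fl;Pitx3-Cre) and from control embryos (Lmx1b wt/wt;Pitx3-Cre) on a C57Bl/6 background, and RNA was sequenced as 3 libraries per genotype. Each library came from 2 pooled embryos, and 4 litters were used in all. Both genotypes carry the Pitx3-Cre allele, in which Cre stands at the Pitx3 locus, so the controls have the Cre too. Recombination is driven in cells that transcribe Pitx3, which in the midbrain are dopaminergic (mdDA) neurons, and the Cre is not designed to act in the cells of the vessel wall. The question asked here was whether the mRNA expression levels of vessel genes differed between Lmx1b cKO and control midbrain.

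Vessels enter the embryonic brain from the surrounding plexus and grow towards tissue that secretes Vegf. The inner wall is made of endothelial cells, which sense Vegf through the receptor tyrosine kinases Kdr and Flt1, mature under the angiopoietin receptor Tek and its relative Tie1, and are sealed to each other by junction proteins such as Pecam1, Esam and Cldn5. Pericytes sit on the outside of the same capillaries, are recruited by endothelial Pdgfb through Pdgfrb, and are needed for the blood-brain barrier to close. In RNA from whole tissue, fewer cells of a type and less RNA per cell cannot be told apart.

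Endothelial genes are known to be driven largely by factors of the ETS family, which bind the core letters GGAA. Promoters (250 bases before to 50 after the gene start, RefSeq, GRCm38.p6) were found for 7 of the 10 members and searched on both strands for the letters CCGGAA and CAGGAA, which do not overlap each other at any hit. Of all 32851 promoters of this length, 14.9% hold the first, 30.6% the second and 41.4% either. Among the members, 5 of 7 promoters hold either, namely 3 of 5 endothelial promoters and those of the pericyte genes Rgs5 and Abcc9. None was found in the window of Flt1 or Cldn5. The 3 endothelial receptor promoters with a match are printed, together with that of Robo4, an endothelial gene outside the members that is described further on. All run 5′ to 3′ on the strand of the gene, and capitals mark the match, which reads TTCCGG or TTCCTG where it lies on the opposite strand. A match is a description of the letters and not a measured binding site.
Kdr, chr5:75978406-75978705, minus strand, CCGGAA on the opposite strand from base -153: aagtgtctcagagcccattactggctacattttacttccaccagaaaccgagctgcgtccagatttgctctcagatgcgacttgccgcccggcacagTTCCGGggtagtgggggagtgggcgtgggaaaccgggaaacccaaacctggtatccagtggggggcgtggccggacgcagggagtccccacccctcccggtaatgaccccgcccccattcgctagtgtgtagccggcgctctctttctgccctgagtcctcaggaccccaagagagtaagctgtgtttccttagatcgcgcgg
Tek, chr4:94739039-94739338, plus strand, CAGGAA on the opposite strand from bases -89 and -59: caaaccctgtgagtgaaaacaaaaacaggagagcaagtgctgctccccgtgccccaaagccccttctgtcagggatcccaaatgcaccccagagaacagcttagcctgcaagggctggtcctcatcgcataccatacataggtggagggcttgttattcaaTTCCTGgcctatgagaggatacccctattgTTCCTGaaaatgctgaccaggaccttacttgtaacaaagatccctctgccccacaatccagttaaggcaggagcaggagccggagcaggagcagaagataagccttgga
Tie1, chr4:118489800-118490099, minus strand, CAGGAA on the opposite strand from base -209: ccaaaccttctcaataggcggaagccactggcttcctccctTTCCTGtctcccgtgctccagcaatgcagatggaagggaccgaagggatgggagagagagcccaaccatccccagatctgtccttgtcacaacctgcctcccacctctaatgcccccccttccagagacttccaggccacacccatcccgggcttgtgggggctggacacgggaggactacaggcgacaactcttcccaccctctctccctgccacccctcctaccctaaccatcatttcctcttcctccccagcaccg
Robo4, chr9:37401722-37402021, plus strand, CAGGAA from base -50: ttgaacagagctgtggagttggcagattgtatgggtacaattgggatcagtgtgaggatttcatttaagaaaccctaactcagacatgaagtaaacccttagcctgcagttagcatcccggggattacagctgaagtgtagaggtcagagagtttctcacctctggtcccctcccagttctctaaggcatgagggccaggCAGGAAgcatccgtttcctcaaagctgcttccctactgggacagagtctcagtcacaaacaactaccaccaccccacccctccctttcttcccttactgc

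The deposited table gives the mean normalized count of each genotype, in which the reads of each library had been divided by a size factor. Reads come in whole numbers, so the values of the 3 libraries could be worked back from each printed mean, with 1 solution per genotype for 26355 genes (98.1%), among them all 10 members. A library recovered in this way has a known genotype and no number, so the 3 libraries of a genotype are called a, b and c, by falling size factor. They hold between 20629683 and 25051860 recovered reads each. The normalized count of Lmx1b, over all of its exons, was 1371 ± 102 in cKO and 1398 ± 66.6 in control libraries (SD, n = 3), so its total count in whole midbrain does not separate the genotypes and is no check of the labels. Genes of bone and mesenchyme set cKO replicate c apart: the summed normalized count of 14 such genes was 15419 there, 3367 in cKO replicate a, 1501 in cKO replicate b and between 1555 and 1779 in the control libraries. Counts of members and list medians are therefore also given without cKO replicate c, and list medians with the lowest and highest value reached when any 1 library was left out.

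No difference between Lmx1b cKO and control midbrain was detected for any of the 10 vessel genes. Between 390 and 3751 reads per library lay on each of them, and the fitted log2 fold changes (cKO against control, limma on the recovered counts) ran from -0.06 for Cldn5 to 0.15 for Tek, with standard errors of 0.060 to 0.12. The 95% intervals of all 10 contained 0, and the outermost ends of these intervals were 0.824-fold and 1.34-fold, each interval taken for its gene alone. In the background of 16680 tested genes, 466 (2.79%) had an unadjusted p under 0.05 (1.18% higher and 1.61% lower in the cKO), and 1279 (7.67%) had groups that did not overlap (3.88% higher and 3.79% lower). Among the members, 0 of 10 met either condition. The p-values given for single members are from two-sided exact permutation tests, in which 3 libraries against 3 cannot go below 0.1. With Benjamini-Hochberg adjustment over all tested genes, limma gave an adjusted p of 1.00 for each member, and 0 of the 16680 genes were under 0.05. The fitted value was above 0 for 7 members and below 0 for 3, with a median of 0.05 against a median of 0.00 (rounded) over all tested genes, of which 49.99% were above 0. Without cKO replicate c, 0 of 10 members had an unadjusted p under 0.05, 7 were above 0 and 3 below, and the median was 0.05, with values from -0.06 for Tie1 to 0.13 for Pecam1. With any 1 library left out, the median was lowest, at 0.0042, without control replicate a (7 above 0 and 3 below). It was highest, at 0.0665, without control replicate b (9 above and 1 below).

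**Figure D1:**
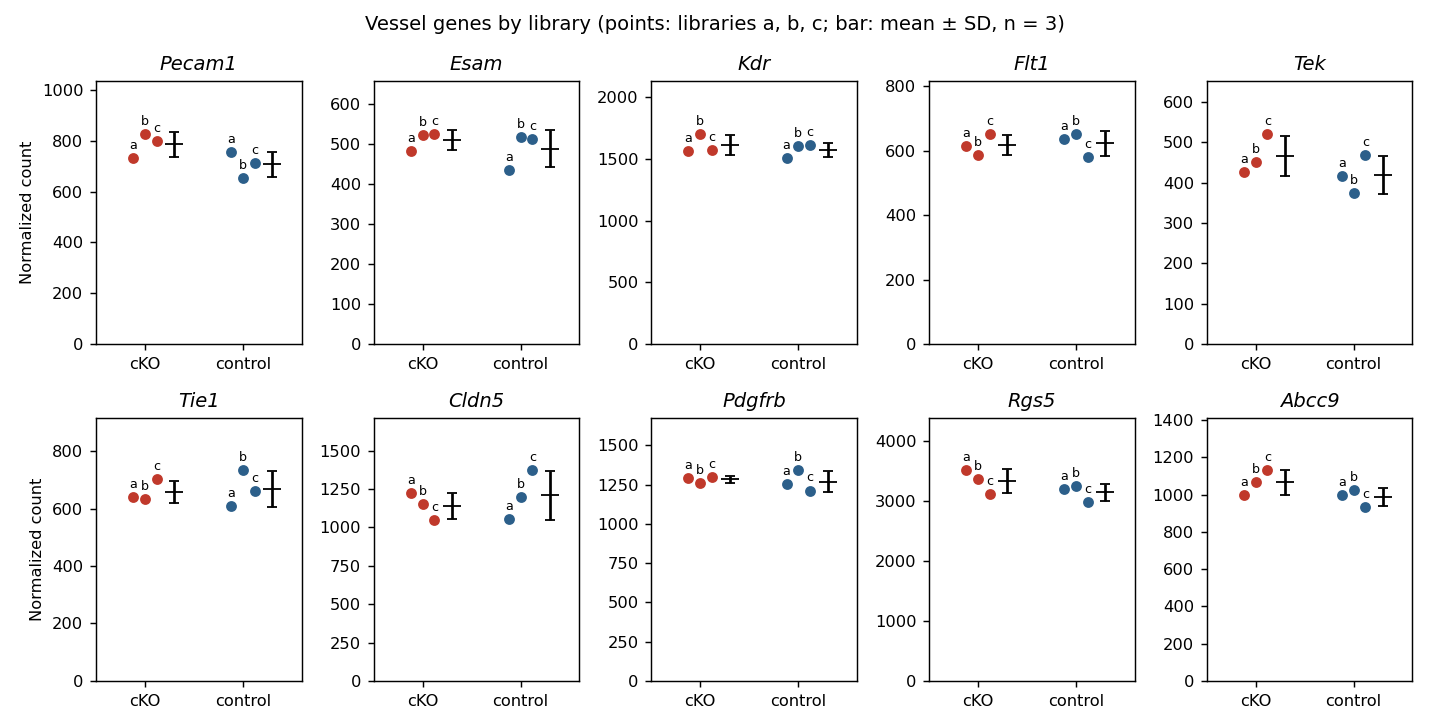
Normalized count (linear axis from 0) of each vessel gene in the 3 cKO and 3 control libraries, with 1 point per library, lettered a to c, and the mean ± SD (n = 3) beside the points. In all 10 panels the ranges of the 2 genotypes overlap.

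Both Vegf receptors had fitted values close to 0. Kdr (ENSMUSG00000062960, chr5:75932827-75978458 on GRCm38, minus strand), the main signalling receptor for Vegfa, had normalized counts of 1562, 1705 and 1575 in cKO libraries a, b and c, against 1511, 1604 and 1613 in control libraries a, b and c. The cKO range reached higher, through replicate b alone, and the control range reached lower. The log2 fold change was 0.03 (SE 0.065, 95% interval -0.11 to 0.18, exact permutation p = 0.6). Flt1 (ENSMUSG00000029648, chr5:147561604-147726011, minus strand), which binds Vegfa tightly and acts largely as a decoy for it, had 614.6, 587.5 and 650.5 in the cKO and 637.0, 652.3 and 578.9 in the control libraries. The highest and the lowest library were both controls. Its log2 fold change was -0.02 (SE 0.091, interval -0.22 to 0.18, exact permutation p = 0.9).

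The angiopoietin receptor Tek (ENSMUSG00000006386, chr4:94739289-94874976, plus strand), also known as Tie2, gave 426.3, 452.2 and 521.7 in the cKO and 415.8, 374.6 and 468.7 in the control libraries. It varied most of the 10 genes, with a coefficient of variation of 11.3% over the 6 libraries and a highest library 1.39 times the lowest. Its log2 fold change of 0.15 (SE 0.12, interval -0.11 to 0.42, exact permutation p = 0.4) had the widest interval of the members, and it ran from 0.07 without cKO replicate c to 0.23 without control replicate c. Tie1 (ENSMUSG00000033191, chr4:118471191-118490061, minus strand), the receptor that pairs with Tek and has no angiopoietin of its own, had 640.8, 632.9 and 701.4 in the cKO and 608.7, 733.0 and 659.9 in the control libraries. The cKO values lay inside the control range, and the log2 fold change was -0.02 (SE 0.097, interval -0.23 to 0.20, exact permutation p = 0.9).

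Of the junction genes, Pecam1 (ENSMUSG00000020717, chr11:106654217-106750628, minus strand), an adhesion molecule of the endothelial contacts, had the smallest p-value among the members. It gave 729.8, 827.3 and 797.7 in the cKO and 754.7, 654.2 and 710.7 in the control libraries. Only cKO replicate a lay within the control range. The log2 fold change was 0.15 (SE 0.090, interval -0.05 to 0.34, exact permutation p = 0.2), from 0.09 without control replicate b to 0.20 without cKO replicate a. Esam (ENSMUSG00000001946, chr9:37528078-37538319, plus strand), another adhesion molecule of these contacts, had 480.6, 522.0 and 524.9 in the cKO and 434.4, 515.9 and 512.0 in the control libraries. Control replicate a was low and the other 5 libraries lay close together, at a log2 fold change of 0.07 (SE 0.11, interval -0.16 to 0.30, exact permutation p = 0.5).

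Cldn5 (ENSMUSG00000041378, chr16:18776847-18778262, plus strand, a single exon), the claudin that makes up most of the tight junction strands of brain capillaries, had 1222, 1151 and 1051 in the cKO and 1053, 1200 and 1372 in the control libraries. The control libraries spread more widely than the cKO libraries, with coefficients of variation of 13.2% and 7.52%. The log2 fold change was -0.06 (SE 0.099, interval -0.28 to 0.15, exact permutation p = 0.6), and it changed sign to 0.03 without control replicate c.

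The 3 pericyte genes each had a fitted value above 0, and none passed the test. Pdgfrb (ENSMUSG00000024620, chr18:61045150-61085061, plus strand), the receptor for endothelial Pdgfb, was the least variable member, at 1292, 1257 and 1297 in the cKO and 1253, 1340 and 1212 in the control libraries. The cKO values lay inside the control range, and the log2 fold change was 0.02 (SE 0.068, interval -0.13 to 0.16, exact permutation p = 0.8). Rgs5 (ENSMUSG00000026678, chr1:169655501-169695813, plus strand), a regulator of G-protein signalling and a common pericyte marker, had 3514, 3378 and 3116 in the cKO and 3201, 3259 and 2987 in the control libraries. Replicates a and b of the cKO were above all control libraries and replicate c was not. Its log2 fold change was 0.08 (SE 0.060, interval -0.05 to 0.21, exact permutation p = 0.3), from 0.04 without cKO replicate a to 0.13 without cKO replicate c. Abcc9 (ENSMUSG00000030249, chr6:142587862-142702315, minus strand), the sulphonylurea receptor subunit of the pericyte potassium channel, had 997.8, 1067 and 1130 in the cKO and 999.8, 1024 and 932.1 in the control libraries. The upper end belonged to the cKO and the lower end to the controls, at a log2 fold change of 0.11 (SE 0.078, interval -0.06 to 0.28, exact permutation p = 0.3), from 0.06 without cKO replicate c to 0.15 without cKO replicate a. It shares 158 exon bases with a transcript on the opposite strand, and whether the counting used the strand is not given in the sources used here. No other member shares exon bases with another gene.

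**Figure D2:**
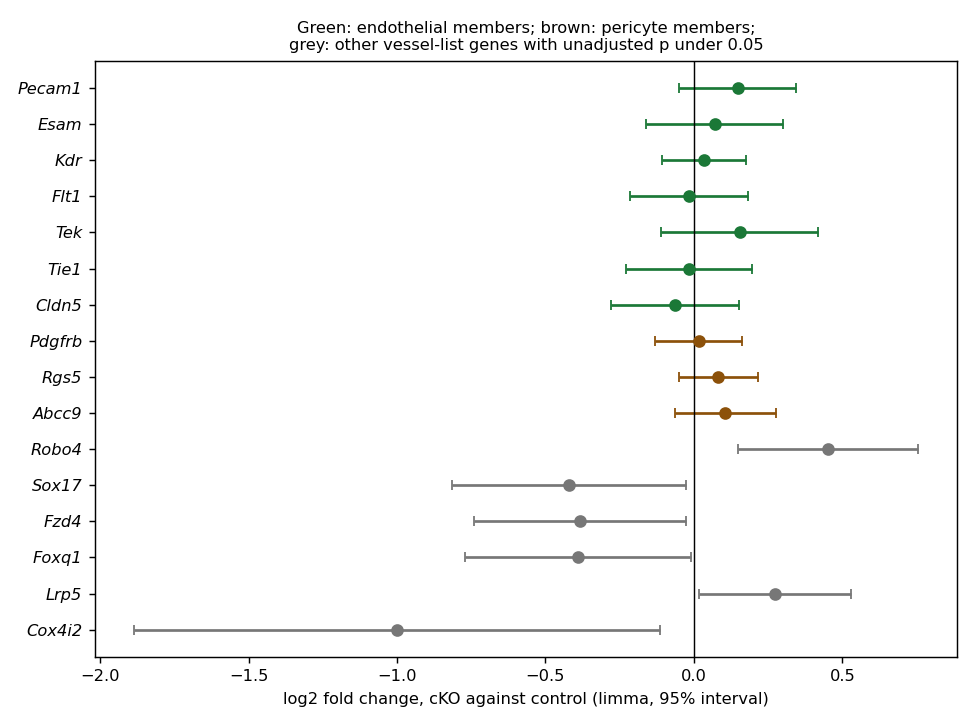
Log2 fold change with its 95% interval (limma, cKO against control) of the 10 vessel genes and of 6 further genes of the vessel lists, which are drawn because their unadjusted p was under 0.05. All 10 member intervals cross 0, and the 6 further genes have wider intervals than Kdr, Rgs5 or Pdgfrb.

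No member came to an unadjusted p under 0.05 when the data were processed in another way. In 13 fits of each member (the main fit, 6 with another scaling, weighting or filter and 6 with 1 library left out), the unadjusted p stayed above 0.05 for every member. The sign held in all 13 fits for Pecam1, Tek, Rgs5 and Abcc9 and turned in at least 1 of them for the other 6 members. The number of members whose groups did not overlap was 0 with all libraries. It was 3 without cKO replicate a (Pecam1, Esam and Abcc9, higher in the cKO), where 17.6% of all tested genes did not overlap, and 1 without cKO replicate c (Rgs5, higher), where 17.2% did not. Without cKO replicate b it was 0 (17.5% of all genes), and it was 1 without each of the control replicates a (Pecam1, 19.4%), b (Pdgfrb, 17.3%) and c (Tek, 14.3%).

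The members together took a nearly constant share of each library. They held 0.0511%, 0.0517% and 0.0509% of the recovered reads of cKO a, b and c, against 0.0490%, 0.0506% and 0.0495% for control a, b and c. The lowest cKO share was above the highest control share, by less than the range among the controls, and no test was made of this sum, since the members were chosen with earlier results known. The highest library was a cKO library for 6 members and a control library for 4, and the lowest was a control library for 9, among them control replicate c for 4. The coefficient of variation over 6 libraries ran from 3.47% for Pdgfrb to 11.3% for Tek, with a median of 6.79%. The 6964 tested genes within the range of mean counts of the members had a median of 6.30%, so that the vessel genes were about as variable as other genes of their abundance.

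Levels between genes were compared per kb of exon, since a longer transcript collects more reads. On this scale Cldn5 was highest, with 830 ± 85.0 normalized counts per kb (SD, n = 6), followed by Rgs5 with 713 ± 41.2. The ranges of these genes over the 6 libraries overlapped. Pdgfrb came next at 233 ± 8.07, 3.06-fold below Rgs5 and with no overlap of the ranges. Kdr (177 ± 7.20) and Esam (174 ± 12.2) overlapped each other, lay below Pdgfrb and lay above the next group. That group was Tie1 (135 ± 9.42), Abcc9 (122 ± 8.07), Pecam1 (120 ± 9.98) and Tek (94.1 ± 10.7), in which each gene overlapped its neighbour in the order. Flt1 was lowest, at 45.9 ± 2.35, with no overlap with Tek. The exon lengths are merged over all annotated transcripts, so a gene with long exons that are little used is given too low a level.

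**Figure D3:**
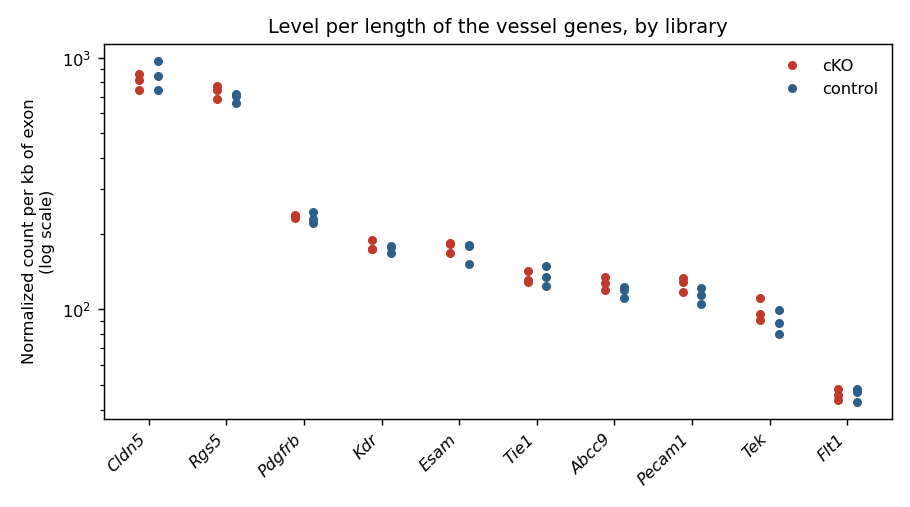
Normalized count per kb of merged exon (log axis) of each vessel gene in the 3 cKO and 3 control libraries, with genes in order of their mean. The points of both genotypes lie side by side within each gene, from about 830 for Cldn5 to about 45.9 for Flt1.

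The balance of pericyte to endothelial genes was close in both genotypes. The mean log2 normalized count of the 3 pericyte genes exceeded that of the 7 endothelial genes by 1.18, 1.13 and 1.102 in cKO a, b and c (1.14 ± 0.038, SD, n = 3) and by 1.18, 1.16 and 0.98 in control a, b and c (1.11 ± 0.11). The lowest of the 6 was control replicate c, and the other libraries lay close together. The genotypes differed by 0.03 on this log2 scale, less than the SD within either group. Leaving out 1 library at a time gave differences between -0.04 and 0.06, and the 18 other pericyte and 30 other endothelial genes gave -0.09.

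Further genes of the vessel wall were taken from lists by cell type or role, and few of them had an unadjusted p under 0.05. Some genes stand in more than 1 list, such as Sox17 and Fzd4. Of 30 other endothelial genes, 17 were above 0 and 13 below, with a median log2 fold change of 0.02 (-0.0006 without cKO replicate c, and up to 0.04 without control replicate c), and 2 had an unadjusted p under 0.05 (background 2.79%). In 3 of the 30 the genotypes did not overlap (background 7.67%), with Robo4 and Erg higher and Sox17 lower in the cKO, Erg being named after its values were seen. The most abundant of them were Tal1, a transcription factor that blood cells and some midbrain neurons also use, and Podxl, a sialomucin of the vessel lumen, at log2 fold changes of -0.07 and -0.03. Robo4, a receptor of endothelial cells that steadies vessels, is named for its unadjusted p. It had 219.2, 234.6 and 223.0 in the cKO and 166.3, 163.3 and 164.2 in the control libraries, from 152 to 234 reads per library. Its spread within each genotype is smaller than read counting alone tends to give and is no sign of precision. All cKO libraries were above all control libraries, at a log2 fold change of 0.45 (SE 0.14, interval 0.15 to 0.76), with an adjusted p of 1.00. Its unadjusted p was under 0.05 whichever of the 6 libraries was left out, and the log2 fold change ran from 0.42 to 0.47.

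Sox17, a transcription factor of arterial and barrier endothelium, lay the other way. It gave 97.4, 122.6 and 135.3 in the cKO and 154.8, 158.5 and 154.4 in the control libraries, with no overlap, at a log2 fold change of -0.42 (SE 0.18, interval -0.81 to -0.03) and an adjusted p of 1.00. The unadjusted p was under 0.05 in 1 of 6 fits that left out a library, the log2 fold change was -0.28 without cKO replicate a, and 804 exon bases of Sox17 are shared with a transcript on the opposite strand. Robo4 and Sox17 therefore had unadjusted calls of opposite sign within the same list.

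Blood-brain barrier genes are switched on in brain endothelium by Wnt and norrin signals, received by Frizzled receptors such as Fzd4 together with Lrp5. Of 19 tested genes of this list, 8 were above 0 and 11 below, with a median of -0.02 that reached its highest value, 0.03, without cKO replicate c and stayed between these values without any other library. An unadjusted p under 0.05 was found for 3 of the 19, against 2.79% of all tested genes (1.61% lower in the cKO). They were Foxq1, Fzd4 and Sox17, all lower in the cKO, and Sox17 is also counted in the endothelial list. In 4 of the 19 the genotypes did not overlap, against 7.67% of all tested genes, of which Abcb1a and Adgra2, named after their values were seen, were higher and Fzd4 and Sox17 lower in the cKO. Slc7a5, the large amino acid transporter, and Tjp1, the tight junction scaffold also known as ZO-1, were the most abundant of the 19 and had log2 fold changes of -0.05 and -0.01. Fzd4 had 172.4, 184.9 and 152.6 in the cKO and 243.3, 187.3 and 238.7 in the control libraries. The groups did not overlap, though control replicate b came close to the cKO, and the log2 fold change was -0.38 (SE 0.16, interval -0.74 to -0.03, adjusted p 1.00). Without cKO replicate a or c or control replicate a or c its unadjusted p was no longer under 0.05, and over the 6 fits with a library left out the log2 fold change ran from -0.51 to -0.31. Foxq1, a forkhead factor of brain endothelium, had a log2 fold change of -0.39 (SE 0.17, interval -0.77 to -0.01, adjusted p 1.00) with overlapping groups. Its unadjusted p was no longer under 0.05 without cKO replicate a or b or control replicate b or c, nor with no filter on low counts, and 3200 of its exon bases are shared with a gene on the opposite strand. Ctnnb1, the Wnt effector, had more reads than the search covered, and the authors' means were 29639 in the cKO and 29350 in the control.

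Among 13 other vessel receptors, 8 were above 0 and 5 below, and the median was 0.03 (from 0.0033 without cKO replicate c to 0.06 without control replicate c). Nrp2 and Nrp1, Vegf and semaphorin co-receptors that neurons share with vessels, were the most abundant and had log2 fold changes of -0.0044 and 0.03. Lrp5, which partners Fzd4, had 483.4, 432.2 and 563.9 in the cKO and 405.2, 419.8 and 389.9 in the control libraries. The groups did not overlap, and the log2 fold change was 0.27 (SE 0.12, interval 0.02 to 0.53, adjusted p 1.00). Its unadjusted p was under 0.05 in 1 of 6 fits that left out a library, that without cKO replicate b, and the log2 fold change was 0.18 without cKO replicate c. Fzd4 and Lrp5, which form a receptor together, thus had fitted values of opposite sign. RNA of whole midbrain does not show which cells these values came from.

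Ligands for these receptors gave no unadjusted p under 0.05 in 15 tested genes, of which 5 were above 0 and 10 below, at a median of -0.07 (-0.06 without cKO replicate c, and from -0.10 without control replicate c to 0.01 without cKO replicate a). The genotypes did not overlap in 1 of the 15, Apln, which was higher in the cKO, against 7.67% of all tested genes. Apln also stands in the tip cell list and was named after its values were seen. Vegfa, the main growth signal for brain vessels, had 2539, 3226 and 2760 in the cKO and 2792, 2919 and 2794 in the control libraries. The cKO libraries spread around the controls on both sides, at a log2 fold change of -0.01 (SE 0.078, interval -0.18 to 0.16). Wnt7b, a neural signal for vessel growth and the barrier, had a log2 fold change of -0.21 (SE 0.13, interval -0.49 to 0.08). Of 6 tip cell genes, which mark the leading cells of a sprout, 3 were above 0 and 3 below, at a median of 0.02 (0.07 without cKO replicate c, and from -0.03 without cKO replicate b to 0.09 without control replicate b). The chemokine receptor Cxcr4 and the netrin receptor Unc5b, which neurons also transcribe, were its most abundant members at -0.24 and 0.05. Basement membrane genes, 8 in number, divided into 4 above and 4 below 0, at a median of 0.0043 (from -0.06 without cKO replicate c to 0.04 without cKO replicate b), and the collagen chains Col4a1 and Col4a2 had log2 fold changes of 0.03 and 0.07.

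Other pericyte and mural genes divided into 8 above and 10 below 0 of 18 tested, with a median of -0.01 (0.02 without cKO replicate c and -0.12 without control replicate b, the extremes). Cox4i2 alone of the 18 had an unadjusted p under 0.05, against 2.79% of all tested genes (1.61% lower in the cKO). In 5 of the 18 the genotypes did not overlap, against 7.67% of all tested genes (3.88% higher and 3.79% lower), with Anpep and Vtn higher and Notch3, Cox4i2 and Atp13a5 lower in the cKO, of which Anpep, Vtn and Atp13a5 were named after their values were seen. Ebf1 and Notch3, the most abundant, are also transcribed by neurons or progenitors of the brain and had log2 fold changes of -0.13 and -0.16. Cox4i2, a cytochrome oxidase subunit of pericytes, had 14.1, 14.8 and 15.2 in the cKO and 23.9, 41.3 and 27.0 in the control libraries. The groups did not overlap, and the cKO mean was 0.477 times the control mean (95% interval of the fitted fold 0.271 to 0.923, adjusted p 1.00), at between 14 and 43 reads per library. Its unadjusted p was no longer under 0.05 without any one of the cKO libraries or without control replicate b, and over the 6 fits with a library left out its log2 fold change ran from -1.18 to -0.77. Arterial smooth muscle genes were low, since 4 of 6 had a mean of at least 10 normalized counts, and Myl9 and Tagln, the most abundant, had log2 fold changes of -0.08 and 0.02. The summed count of the 6 was 1.38 times its mean in cKO replicate c, the highest of the libraries, and the list median of -0.03 ran from -0.28 without that library to 0.38 without cKO replicate b.

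**Figure D4:**
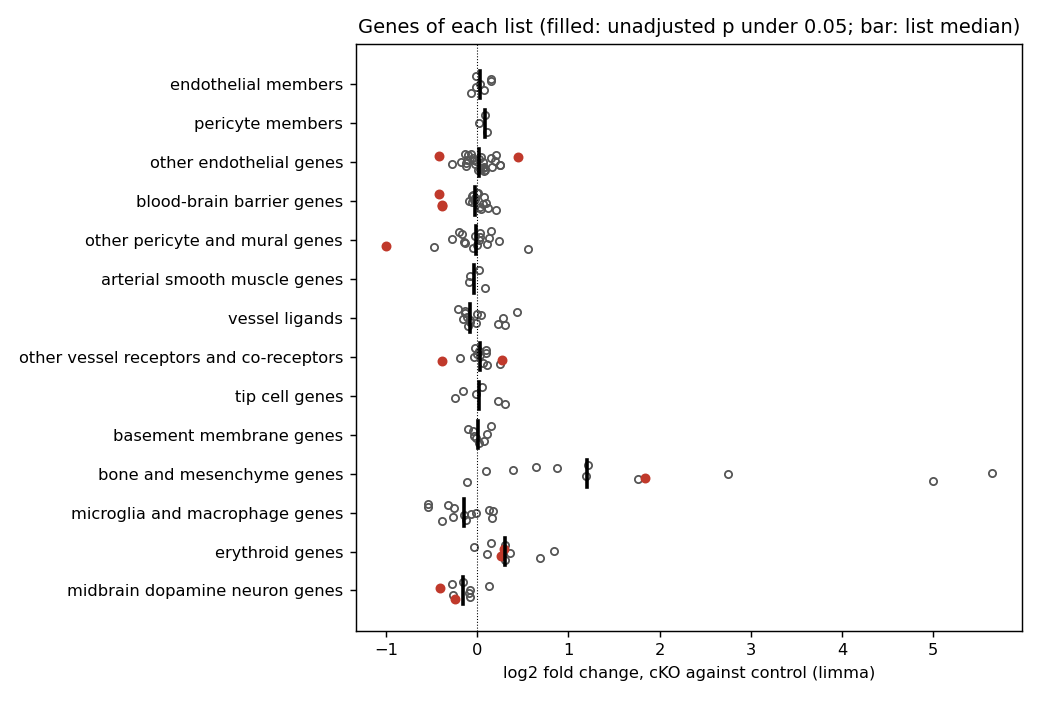
Log2 fold change (limma, cKO against control) of each tested gene in 14 lists, with filled red points where the unadjusted p was under 0.05 and a bar at the list median. Both member lists and all vessel lists centre near 0. Of the bone and mesenchyme genes, Lum, Ibsp and Twist1 were tested only because of their cKO values. The bar and the direction of that list are therefore not read.

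Markers of other cells in the dissected tissue were set beside the vessel genes. Across the 6 libraries, the summed normalized count of the 7 endothelial members stayed between 0.94 and 1.03 times its mean and that of the 3 pericyte members between 0.93 and 1.05 times. Over the same libraries the bone and mesenchyme list ran from 0.36 to 3.65 times its mean. Of the 14 genes of that list, tested or not, 12 were highest in cKO replicate c. Lum, Ibsp and Twist1 had control means of 0.590, 0.360 and 8.36 normalized counts and were tested only because of their higher values in the cKO, which fixed their direction, so no median or count of directions is given for the 12 tested genes. Its most abundant genes were the collagen chains Col1a1 and Col1a2, at log2 fold changes of 5.00 (interval -4.97 to 14.96) and 1.76 (interval -0.82 to 4.34). Col3a1, another fibrillar collagen, had 1.84 (interval 0.15 to 3.53, unadjusted p under 0.05, adjusted p 1.00), from 1.03 without cKO replicate c to 2.58 without cKO replicate b, and its unadjusted p was no longer under 0.05 without any one of the 3 control libraries. In cKO replicate c the endothelial members stood at 1.01 times and the pericyte members at 1.00 times their means. Single members differed within these sums, since Tek, Esam and Abcc9 were highest and Cldn5 was lowest in that library, and the part of the mesenchyme genes in these values was not tested.

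Erythroid genes, which report blood left inside the vessels, had 9 of 10 tested genes above 0 and a median of 0.30 (0.23 without cKO replicate c, and from 0.17 without control replicate a to 0.40 without control replicate c). Their sum was 13930, 17723 and 18176 in the cKO and 12624, 12746 and 17202 in the control libraries. The value of control replicate c lay within the cKO range, and cKO replicate a was closest to the other control libraries. Hbb-bs and Hba-a1, adult globins with near-identical copies between which reads may have been divided, had log2 fold changes of 0.30 (interval 0.03 to 0.57) and 0.26 (interval 0.02 to 0.50), both with an unadjusted p under 0.05, and Hbb-y, an embryonic globin, 0.31. Without control replicate a, Hbb-bs had 0.15 and Hba-a1 0.14, and without cKO replicate c they had 0.20 and 0.16, each time with an unadjusted p no longer under 0.05, as also for Hbb-bs without control replicate b and for Hba-a1 without cKO replicate b. All 3 had an adjusted p of 1.00. Whether the amount of blood bore on any vessel gene was not tested.

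Microglia and macrophage genes had 3 of 13 above 0 and a median of -0.15 (-0.14 without cKO replicate c, and from -0.27 without cKO replicate b to -0.07 without cKO replicate a), with no unadjusted p under 0.05. The genotypes did not overlap in 1 of the 13, Trem2, lower in the cKO and named after its values were seen, against 7.67% of all tested genes. Csf1r and Cx3cr1, receptors that define microglia, had log2 fold changes of -0.07 and -0.01. Of 5 tested genes of meningeal fibroblasts, 4 were above 0, at a median of 0.10 (0.11 without cKO replicate c, and from 0.05 without cKO replicate a to 0.21 without cKO replicate b), and the transcription factor Foxp1 and the retinoid binding protein Crabp2 had 0.06 and 0.26. Of 9 mdDA neuron genes, the list nearest to the targeted cells, 8 were below 0, at a median of -0.16 (-0.20 without cKO replicate c, and from -0.22 without control replicate a to -0.07 without control replicate c). Nr4a2, a factor of these neurons, had -0.08, and Ddc, an enzyme of dopamine synthesis, and Pitx3 had -0.24 and -0.41, each with an unadjusted p under 0.05 and an adjusted p of 1.00. These were 2 calls in 9 genes, against 2.79% of all tested genes (1.61% lower in the cKO). In 3 of the 9, Ddc, Nr4a2 and Pitx3, the genotypes did not overlap, all lower in the cKO, against 7.67% of all tested genes. Without control replicate c, Ddc had -0.11, and without cKO replicate a, Pitx3 had -0.24, in both cases with an unadjusted p no longer under 0.05, which each gene also lost in 3 other fits that left out a library. The pan-neuronal genes Syt1 and Snap25, the recovered 2 of 8, had 0.00 and 0.06.

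**Figure D5:**
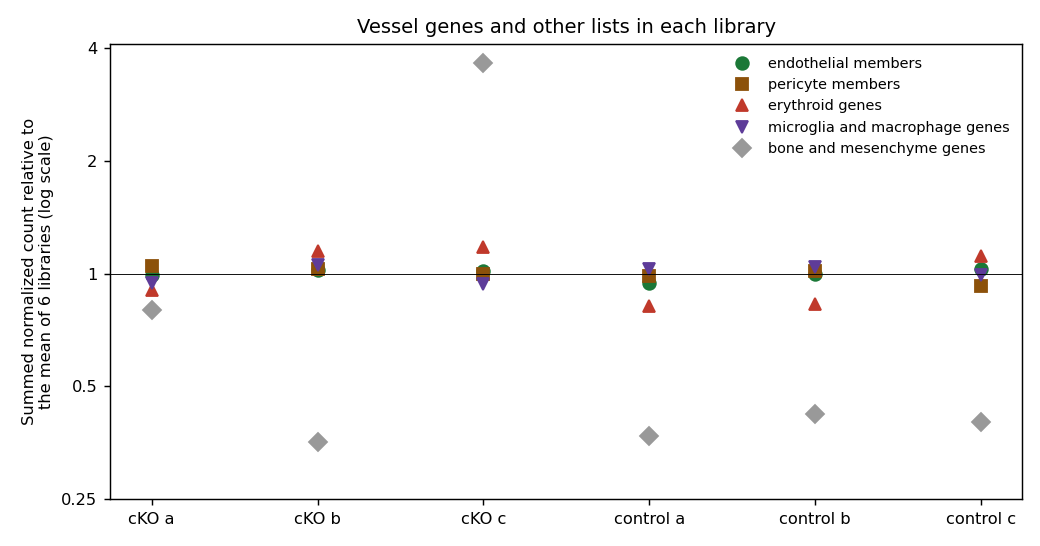
Summed normalized count of the endothelial and pericyte members and of 3 other lists in each library, relative to the mean of that list over the 6 libraries (log axis). The vessel members stay between 0.93 and 1.05, whereas bone and mesenchyme genes reach 3.65 in cKO replicate c.

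Genes with the most similar profile over the 6 libraries were sought among 12438 other genes with a mean of at least 100 normalized counts, by the root mean square difference of centred log2 values. Closest to the mean profile of the endothelial members were Hdac7 (0.014), Nolc1 (0.014), Selenon (0.016), Fbxw8, Hars, Sf1, Ube2e2, Tut1, Prrt1 and D5Ertd579e, against a median of 0.10 over all genes searched. Closest to the pericyte members were Gopc (0.015), Prkcz2 (0.017), Phf20 (0.018), Ncstn, Arfrp1, Ankrd26, Capzb, Sccpdh, Rnf169 and Dennd5a. No gene of the vessel lists was among these 20. Other endothelial genes were not nearer than genes at large, at a median of 0.14 from the endothelial profile for 24 genes, and 10 other pericyte and mural genes were at 0.14 from the pericyte profile against 0.11 over all genes. The genes compared were not matched for abundance, so whether vessel genes varied together was not tested. A flat profile is shared by many genes, and the 6 libraries are the same for every point of this comparison.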

How the data were processed

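RNA of E14.5 midbrains was sequenced in 3 Lmx1b cKO and 3 control libraries. The submitters' notes name TopHat 1.0.14, Bowtie2 2.1.0, HTSeq 0.6.1p1, DESeq 1.10.1 and the genome build GRCm38.p4, and the paper names DESeq2. The table deposited by the authors holds the mean signal of each group, in reads divided by size factors, for 26852 genes and 3 lines that name no gene (31.8% of mean counts), and the authors' own ratios, log2 ratios and p-values, which were not used. Whole reads per library were recovered by searching sums of up to 30000 reads, and 0 of 1000 decoy values per group had an answer. The recovered genes hold 69.5% of the normalized counts on genes, and size factors recomputed from them differed by at most 0.140%.

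The test was limma 3.58.1 on genes whose mean was 10 normalized counts or more (voom weights, genotype as the only term, R 4.3.3), two-sided, with Benjamini-Hochberg adjustment over 16680 genes, after a test on simulated data. Gene positions and exons came from GENCODE M21 (26703 of 26852 genes). Intervals are at 95%. The libraries are separate pools of embryos. Named were the 10 members, from each list its genes with an unadjusted p under 0.05 and its 2 most abundant genes, and the 10 genes nearest in profile to each member class. Outside this rule, after their values were seen, Erg, Abcb1a, Adgra2, Anpep, Vtn, Atp13a5, Apln and Trem2 were named because their groups did not overlap. Lum, Ibsp and Twist1 were named for their low control means, and Ctnnb1 as beyond the search. Lmx1b was named as the targeted gene. Alternatives were another weighting, scaling, minimum mean (50, 100 or none), p threshold or pseudocount (1 or 10) and each library left out in turn. The members and lists were chosen with earlier results of these data known. Angpt4 and Nov were looked for and were not analysed here. Python 3.11.15 was used.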

Additional observations from a re-analysis of the deposited data

How the results depend on the processing

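No member passed an unadjusted p of 0.05 under any alternative. Leaving out 1 library at a time turned the sign of the log2 fold change for Esam (-0.0179 to 0.1163), Kdr (-0.0048 to 0.0594), Flt1 (-0.0631 to 0.0173), Tie1 (-0.086 to 0.0562), Cldn5 (-0.1633 to 0.0255) and Pdgfrb (-0.0138 to 0.0555). No other alternative turned the sign of a member. Over the same fits the median of the endothelial members ran from 0.0010 to 0.0594 and that of the pericyte members from 0.0426 to 0.1071, and the number of members whose groups did not overlap, an alternative chosen after seeing the data, from 0 to 3. The count of all genes with an unadjusted p under 0.05 was 466, and became 303 with a minimum mean of 100, 971 with no filter, where 26355 genes were tested, and 67 at a threshold of 0.01, and ran from 333 to 635 with a library left out. It was 333 without control replicate c. With limma-trend it was 476, and the number of genes with a limma adjusted p under 0.05 was 0 in each fit other than that without control replicate a, where it was 4 and held no member. The pericyte against endothelial difference of 0.0271 became -0.0905 with the other genes of the lists, and the cause was not tested. The median of the other pericyte and mural genes went from -0.0136 to -0.1204 without control replicate b.

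Robo4 kept an unadjusted p under 0.05 in all 6 fits without a library. The other named genes that had it lost it in 3 to 5 of these fits, and Sox17 and Foxq1 also with no filter. No paired analysis was possible because the recovered libraries carry no number. The header of the deposited table numbers the libraries 1 to 3 within each genotype and the sample labels number them 1 to 6 across both, but neither number, nor the litters, can be tied to the recovered libraries. With 3 libraries per genotype, the interval of each gene gives the changes its data allow, and the most abundant genes, beyond the search, have no values per library.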
